A study of Mus musculus with 4 samples.

Results

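The genes described here are 9 parts of the matrix that surrounds neurons and glia: the lecticans Vcan, Bcan and Ncan, the link protein gene Hapln1, the membrane proteoglycan genes Cspg4 and Cspg5, the tenascin genes Tnr and Tnc, and the receptor phosphatase gene Ptprz1. They were chosen by name, with earlier results of these data known. They are 9 of the 45706 features counted, and all 9 entered the test across 11548 genes. The nuclei came from mice with a tamoxifen-inducible Cre and the CAGfloxStop-Sun1/sfGFP reporter, of both sexes on a C57Bl/6J background, used from 6 to 8 weeks of age, in which tamoxifen switches on a green nuclear envelope tag in the cells that hold the Cre and in their progeny. Tagged nuclei were sorted from the dentate gyrus 1, 2, 4 and 8 weeks after tamoxifen (libraries w1, w2, w4 and w8), with the left dentate gyri of 4 mice pooled for each library. All 4 libraries share the alleles and the tamoxifen, so they hold no untreated or unlabelled control, and the glia are limited to cells in which the Cre was active and to the descendants of such cells. Each week is 1 pool, so a difference between weeks has no replicate.

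The lecticans are secreted proteoglycans that bind hyaluronan at one end and tenascins at the other, and a link protein holds the hyaluronan end in place. This lattice fills the space around cells and condenses into perineuronal nets on some neurons. In the brain, oligodendrocyte precursor cells (OPC), astrocytes (Astro) and radial glia-like stem cells (RGL) are among its makers, and neurons add parts of their own. Its chondroitin sulphate chains and tenascins are known to act on cell migration, neurite growth and synaptic plasticity.

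The data hold 14367 nuclei with a deposited cluster, of 17046 barcodes, with 13227971 to 28595331 UMIs per library, and 22 barcodes occur in 2 libraries. The glial clusters are small: 131 OPC nuclei (25 to 36 per library), 1387 RGL nuclei (486, 461, 357 and 83 in w1, w2, w4 and w8) and 67 Astro nuclei (22, 21 and 24 in w1, w2 and w4, and none in w8). A level is given as UMIs of the gene per 1000000 UMIs of the same nuclei (CPM), and its counting error grows as these sums shrink. The cluster names were checked against marker genes. All 8 OPC markers were highest in OPC, where they summed to between 10620 and 13941 CPM by library, against 73.3 to 94.4 CPM in RGL. Of 6 astrocyte markers, 5 were highest in Astro (1593 CPM in all, against 212 in RGL), and of 7 RGL markers 3 were highest in RGL (3067 CPM, against 1211 in Astro and 1558 in OPC), so RGL is marked less sharply than OPC. The clusters were built by the authors from expression. Of the 9 genes, 7 are in their table of expressed genes and Cspg4 and Hapln1 are not, but the study used Cspg4 to name the OPC cluster and Ptprz1 is among the genes it lists as most variable. Contrasts between clusters are thus not independent of how the clusters were made.

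The genes lie on 7 chromosomes, given here in GENCODE release M21 on GRCm38. Vcan (chr13:89655312-89742509, minus strand) and Hapln1 (chr13:89539796-89611652, plus strand) are neighbours, 43659 bp apart with no coding gene between them. The same arrangement of a lectican beside a link protein gene holds for Bcan (chr3:87987531-88000230, minus) and Hapln2, 21519 bp apart, and for Ncan (chr8:70093085-70120873, minus) and Hapln4, 2222 bp apart. Cspg4 (chr9:56865033-56899870) and Cspg5 (chr9:110243783-110262576) are on the plus strand of the same chromosome. Tnr (chr1:159523769-159931729, plus) spans 407961 bp, of which exons make up 3.15%, and Ptprz1 (chr6:22875502-23052916, plus) 177415 bp. Tnc is at chr4:63959785-64047015 on the minus strand. Exons and introns were both counted, so the long genes offer more introns to nuclear RNA and levels are compared here between clusters and not between genes. The transcript 8030451A03Rik overlaps Tnc on the opposite strand and was at 193 CPM in RGL, 50.7 in Astro and 4.44 in OPC, and the antisense transcript Gm4117 overlaps the start of Vcan and was at 122 CPM in Astro, 83.1 in RGL and 50.4 in OPC. The sources give the strand setting of the counting only as the counter's default, and reads of such pairs could not be told apart without strand.

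The promoters of 3 genes are shown, because Tnr, Tnc and Bcan were highest in OPC, RGL and Astro respectively. The windows are the 250 bases upstream of the start in RefSeq on GRCm38.p6, at chr1:159523519-159523768 (plus strand) for Tnr, chr4:64047016-64047265 (minus) for Tnc and chr3:88000357-88000606 (minus) for Bcan. Capitals mark the letters ACAAT (a SOX core), CAGCTG (an E-box), ATGCAAAT (a POU octamer) and TATAAA on either strand, and matches may overlap.
Tnr: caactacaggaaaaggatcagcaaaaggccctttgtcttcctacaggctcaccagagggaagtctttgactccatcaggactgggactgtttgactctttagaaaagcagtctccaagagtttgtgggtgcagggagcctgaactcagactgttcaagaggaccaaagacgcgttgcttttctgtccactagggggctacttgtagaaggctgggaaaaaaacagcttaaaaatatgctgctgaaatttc
Tnc: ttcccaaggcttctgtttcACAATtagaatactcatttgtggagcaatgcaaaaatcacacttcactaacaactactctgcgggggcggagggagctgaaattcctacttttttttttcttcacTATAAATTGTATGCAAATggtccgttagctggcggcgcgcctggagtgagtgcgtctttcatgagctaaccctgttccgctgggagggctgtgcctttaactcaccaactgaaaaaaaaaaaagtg
Bcan: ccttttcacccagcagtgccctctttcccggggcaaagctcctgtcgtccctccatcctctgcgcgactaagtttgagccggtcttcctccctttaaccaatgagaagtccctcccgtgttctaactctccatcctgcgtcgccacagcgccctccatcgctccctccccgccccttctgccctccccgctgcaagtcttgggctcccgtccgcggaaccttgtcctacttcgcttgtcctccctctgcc
The Tnc window holds ACAAT on 2 occasions and ATGCAAAT and TATAAA once each with TATAAA, 1 ACAAT on the other strand and the octamer in an unbroken run of capitals. These letters occur in 28.3%, 1.61% and 12.97% of 27025 promoter windows of the same length, so only the octamer is rare. The windows of Tnr and Bcan hold none of the 4 motifs. GC content was 46.8% for Tnr, 44.8% for Tnc and 62.0% for Bcan. A further RefSeq window for Tnc, at chr4:64046937-64047186 (minus), is not shown. Its GC content was 51.2%, and it holds the unbroken run of capitals but not the first ACAAT. RefSeq windows matched 8 of the 9 genes.

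Together the 9 genes took 10681 CPM of OPC RNA, with 10382 to 11181 by library, or 55.1 UMIs per nucleus. In RGL they took 4169 to 5126 CPM and in Astro 3141 to 3999, so that every OPC library lay above every RGL and Astro library. Tnr at 4788 CPM and Ptprz1 at 2947 made up most of the pooled OPC total, and Ptprz1 at 3709 most of that in RGL. These totals thus mostly follow Tnr and Ptprz1. Both are long genes, and the part of gene length in the totals was not tested. Neural progenitor cells (NPC) held 2448 CPM and the neuronal clusters from neuroblasts (NB1, NB2) through immature (GCimm1, GCimm2) and young (GCyoung) to mature granule cells (GCmat1, GCmat2) between 685 and 1246. The cluster the authors named pericytes (Peri) held 177 CPM and oligodendrocytes (Oligo) 54.6. All 5 markers of leptomeningeal cells were highest in Peri, at 1437 CPM in all against 11.9 or less elsewhere, so its nuclei are called Peri here only as the deposited name. Within this total some genes were highest in OPC, RGL or Astro and others were shared between types of cell, as the map of levels by cluster shows.

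**Figure D1:**
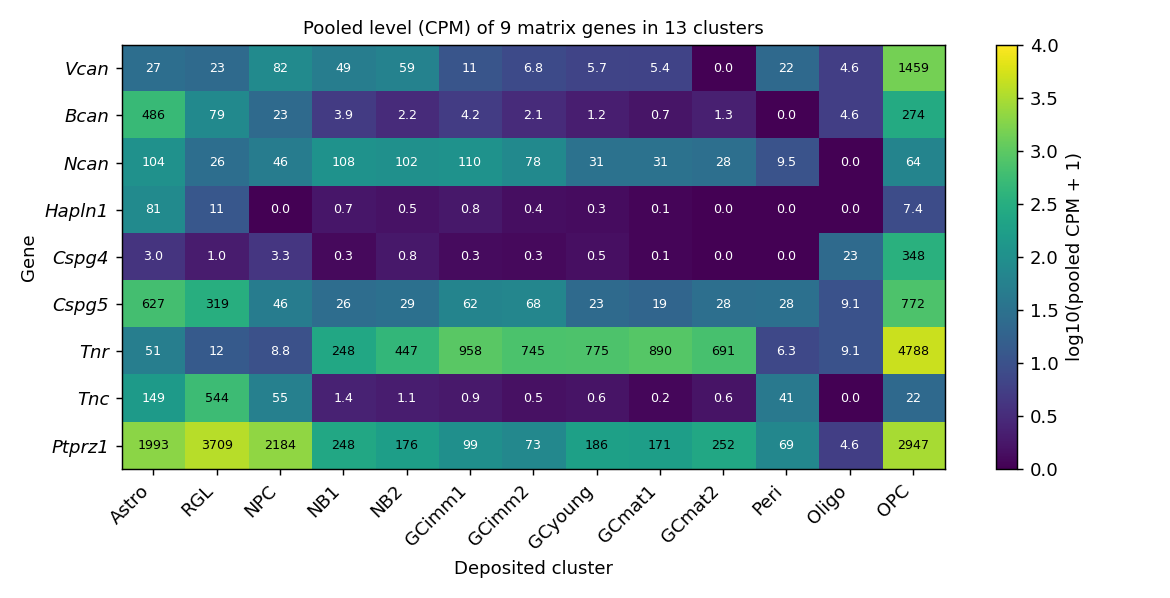
Pooled level of each gene (rows) in each of the 13 deposited clusters (columns), in CPM on a log10 colour scale. Vcan, Cspg4 and Tnr peak in OPC, Tnc in RGL and Bcan and Hapln1 in Astro. Ncan lies between 102 and 110.2 CPM in GCimm1, NB1, Astro and NB2, and Ptprz1 is high in RGL, OPC, NPC and Astro.

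Among the lecticans, Vcan was an OPC gene. Its level in OPC was 1465, 1119, 1747 and 1587 CPM in w1, w2, w4 and w8 (mean 1480 ± 267, SD, n = 4 libraries). RGL held 19.1, 25.4, 28.7 and 15.9 CPM in the same libraries, and Astro 7.66, 35.6 and 43.4 in w1, w2 and w4, from 9 UMIs in all. The OPC libraries thus lay far above all others, and RGL and Astro overlapped. NPC came next after OPC with 91.8 ± 25.0 CPM (n = 3), then NB2 with 64.7 ± 10.7 and NB1 with 51.2 ± 15.2, and NPC and NB2 did not differ beyond their spread (edgeR adjusted p = 0.805). In GCmat1 Vcan was down to 6.17 ± 0.903 CPM, and no UMI was found in 209 GCmat2 nuclei.

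Bcan, the smaller lectican made mainly by glia, had the order Astro, OPC, RGL. Astro held 498, 534 and 412 CPM in w1, w2 and w4, OPC 322, 316, 213 and 245 CPM in w1, w2, w4 and w8, and RGL 70.0, 95.8, 56.7 and 134 CPM. The ranges of these 3 clusters over libraries do not overlap. NPC had 22.9 ± 9.33 CPM and every neuronal cluster a mean of 3.45 CPM or less.

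Ncan, the lectican of developing brain, was the only one of the 3 with its highest means in neuroblasts. Its mean was 115 ± 17.0 CPM in NB2 (n = 3), 112 ± 12.5 in NB1 and 105 ± 6.50 in GCimm1, and Astro stood among them with 84.3, 97.9 and 141 CPM in w1, w2 and w4. OPC held 61.4, 63.2, 31.3 and 94.7 CPM and RGL 28.3, 22.6, 30.9 and 19.1 CPM in w1, w2, w4 and w8, with the highest RGL library below the lowest OPC library by less than the counting error of either. GCmat1 was at 32.9 ± 5.02 CPM. No 2 neighbours in the order of its 13 clusters differed past the thresholds, but the library ranges of GCimm1 and GCimm2, of GCyoung and GCmat2 and of RGL and Peri (2.21, SE 0.86, adjusted p = 0.0545) did not overlap.

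Hapln1, which ties lecticans to hyaluronan, was an Astro gene at a low count. Astro held 69.0, 80.1 and 97.5 CPM in w1, w2 and w4, from 9 UMIs in each library. RGL held 8.26, 8.93, 13.3 and 38.2 CPM in w1, w2, w4 and w8, and OPC 0, 9.73, 6.26 and 11.1 CPM, from 5 UMIs in all. Every Astro library lay above every RGL library, and RGL and OPC overlapped. NPC held no UMI of Hapln1, which allows at most 3.33 CPM over its 3 libraries with 10 or more nuclei, and the highest mean of a neuronal cluster was 0.824 CPM.

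Cspg4, the transmembrane NG2 proteoglycan, marked OPC with little elsewhere. Its level in OPC was 529, 331, 244 and 329 CPM in w1, w2, w4 and w8. RGL held 6 UMIs in 1387 nuclei and Astro 1 UMI in 67. Oligo was second at 11.2 ± 9.92 CPM (n = 3 libraries), from 2 UMIs in those libraries. Cspg5, the transmembrane neuroglycan C, was shared by the glia: OPC held 920, 817, 714 and 663 CPM in w1, w2, w4 and w8, Astro 598, 632 and 661 CPM in w1, w2 and w4, and RGL 294, 339, 346 and 245 CPM. The ranges do not overlap, although OPC and Astro are close and did not pass the test (adjusted p = 0.109). Among neurons its highest mean was 63.8 ± 9.28 CPM in GCimm2, against 14.4 ± 12.8 in GCmat1.

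The tenascins split between lineages. Tnr, which cross-links lecticans in perineuronal nets, was at 4977, 4802, 5084 and 4372 CPM in OPC (mean 4809 ± 313, n = 4). RGL held 8.70, 9.40, 20.6 and 25.5 CPM and Astro 38.3, 62.3 and 54.2, so Astro lay above RGL without overlap, from 17 UMIs. Tnr was also a neuronal gene, with 228 ± 55.3 CPM in NB1, 390 ± 117 in NB2, 959 ± 78.4 in GCimm1, 717 ± 50.1 in GCimm2, 803 ± 45.8 in GCyoung, 857 ± 78.6 in GCmat1 and 668 ± 76.1 in GCmat2. From GCimm1 to GCmat2 no neighbours in this order differed past the thresholds. Tnc, the tenascin of stem cell niches and reactive glia, ran the other way: RGL held 731, 426, 459 and 351 CPM in w1, w2, w4 and w8, and OPC 38.3, 9.73, 18.8 and 27.8 CPM from 15 UMIs. Astro held 53.6, 97.9 and 347 CPM in w1, w2 and w4, of which w4 lay almost at the lowest RGL library. The summed RGL markers in Astro were flat over those libraries, at 1195, 1192 and 1257 CPM, and the part of other cells in the w4 value was not tested further.

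Ptprz1, whose secreted form is the proteoglycan phosphacan, was high in all progenitors and glia but oligodendrocytes. RGL held 3966, 3384, 3867 and 3340 CPM in w1, w2, w4 and w8, OPC 2868, 2914, 2861 and 3119 CPM, and Astro 2153, 1602 and 2243 CPM in w1, w2 and w4. NPC was at 2379 ± 440 CPM (n = 3), between OPC and Astro. Neuronal means ranged from 77.6 ± 28.6 CPM in GCimm2 to 276 ± 81.5 in GCmat2, and Oligo held 1 UMI in 45 nuclei. RGL and OPC did not overlap, but did not pass the test (adjusted p = 0.636).

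**Figure D2:**
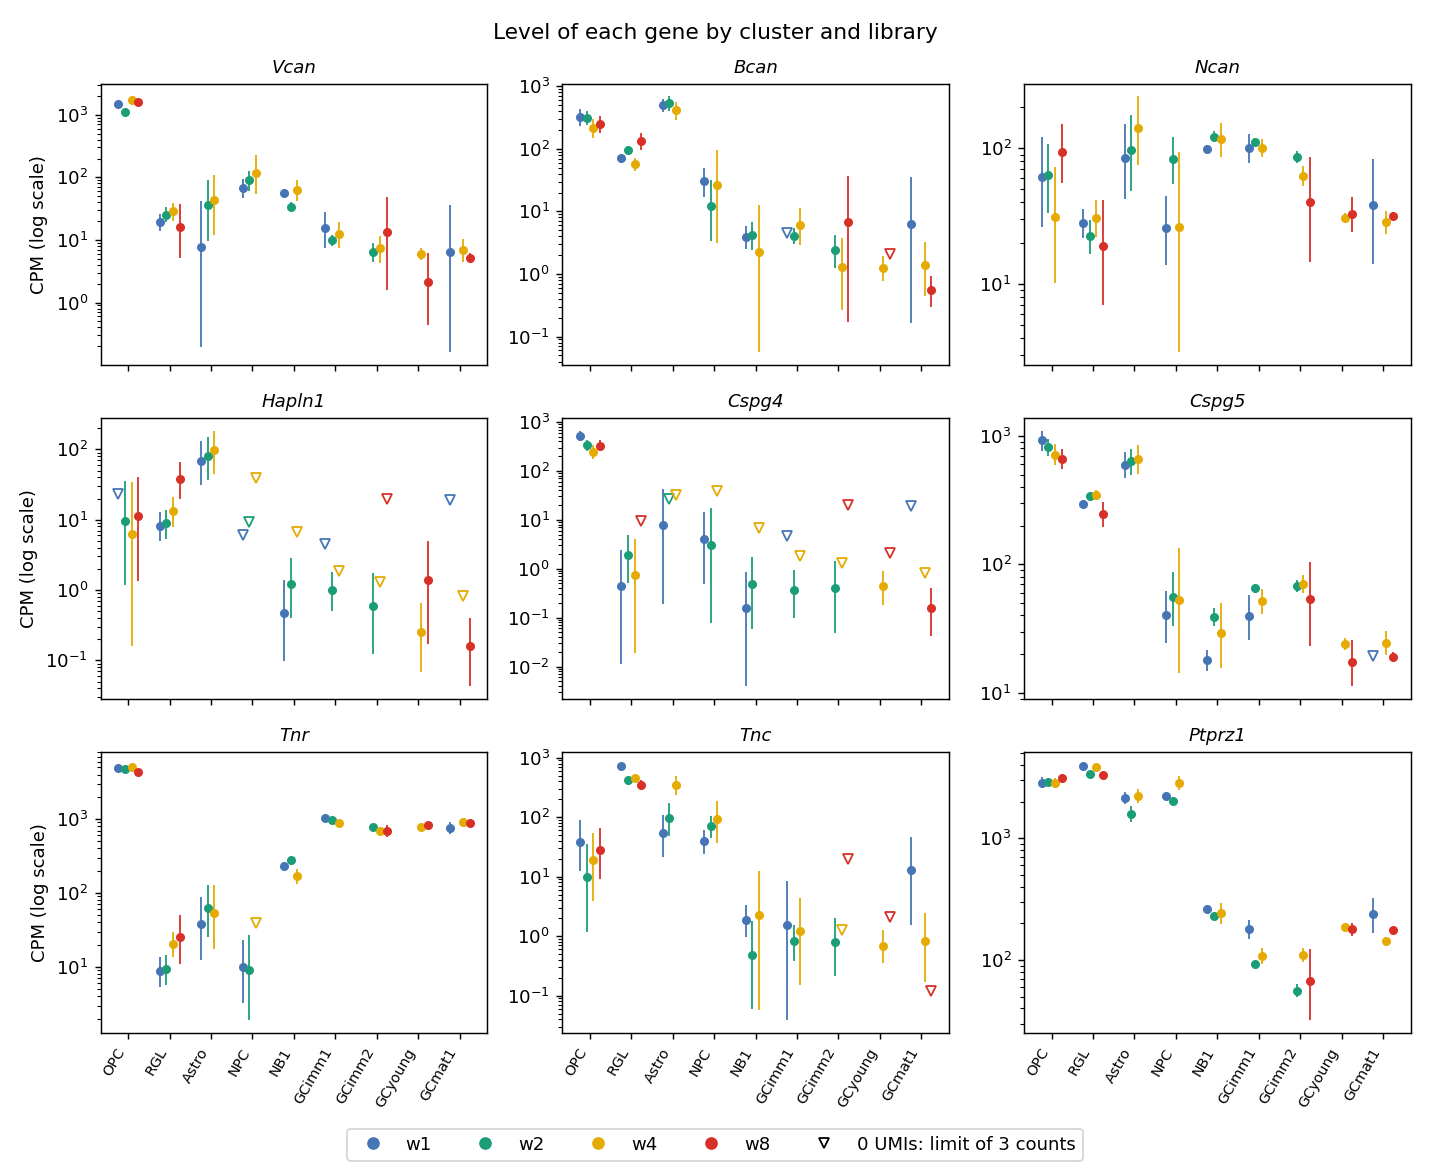
Level of each gene in CPM (log scale) by cluster, 1 point per library with at least 10 nuclei, with exact 95% Poisson intervals; open triangles mark libraries with 0 UMIs at the limit of 3 counts. The OPC points of Vcan, Cspg4 and Tnr stand above all other clusters, and the 4 RGL points of Tnc (351 to 731) above every other point, with the w4 point of Astro (347) just below the lowest of them.

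The question of how the glial types differ was put to 1 edgeR quasi-likelihood fit over 38 sums of UMIs, each a library and cluster with at least 10 nuclei, with cluster and library as terms. A gene was called at an adjusted p of at most 0.05 and a fold change of at least 1.5. Each SE is the size of the log2 fold change over the square root of the test's F, and was not estimated separately. For genes with few UMIs it can be smaller than counting error. Sums from 1 pool share its mice, so the p-values measure the spread between these sums and not between animals. The contrasts share sums and are not independent of each other.

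OPC and RGL had different matrix genes. In OPC against RGL, 6 of the 9 genes were higher and 1 was lower, where 14.5% of all genes tested were called higher and 15.2% lower. The largest differences were Tnr, with a log2 fold change of 8.65 (SE 0.27, adjusted p = 4.58e-33), Cspg4 with 8.64 (SE 0.33, adjusted p = 1.43e-28) and Vcan with 6.09 (SE 0.19, adjusted p = 4.58e-33). Bcan (1.88, SE 0.22), Cspg5 (1.47, SE 0.16) and Ncan (1.38, SE 0.32, adjusted p = 0.000405) were higher by less. Tnc was lower in OPC, at -4.28 (SE 0.39, adjusted p = 8.6e-14). Hapln1 at -1.06 (SE 0.67, adjusted p = 0.258) and Ptprz1 at -0.16 (SE 0.21) were not called. The median of the 9 was 1.47, against -0.14 over all genes.

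In OPC against Astro, 4 of the 9 were higher in OPC and 3 lower, with 11% of all genes called higher and 9.6% lower (median 0.44, against 0.07 over all genes). Cspg4 (7.02, SE 0.60), Tnr (6.63, SE 0.34) and Vcan (5.83, SE 0.33) were higher in OPC, and Ptprz1 was higher by 0.67 (SE 0.24, adjusted p = 0.0382). Hapln1 was lower in OPC, at -4.12 (SE 0.67, adjusted p = 2.58e-06), as were Tnc at -2.50 (SE 0.59, adjusted p = 0.000924) and Bcan at -0.79 (SE 0.25, adjusted p = 0.0176). Cspg5 (0.44, SE 0.19) and Ncan (-0.67, SE 0.38, adjusted p = 0.254) were not called. The smaller calls are frail: without w4, Tnc was at -1.29 with an adjusted p of 0.238, and Bcan and Ptprz1 lost their calls there too, leaving 4. Bcan also lost its call without each of the other libraries, and Ptprz1 without w2, and both lost it with no library term, when thinned, with DESeq2 and at a fold change of at least 2. Tnc also lost its call with DESeq2 (-2.42, adjusted p = 0.0582).

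Astro and RGL differed in 7 of the 9, with 5 higher in Astro and 2 lower, against 5.85% of all genes called higher and 5.14% lower. Hapln1 (3.06, SE 0.46, adjusted p = 1.16e-06), Bcan (2.66, SE 0.24), Ncan (2.05, SE 0.36), Tnr (2.02, SE 0.55, adjusted p = 0.00815) and Cspg5 (1.03, SE 0.19) were higher in Astro. Tnc (-1.78, SE 0.33, adjusted p = 4.37e-05) and Ptprz1 (-0.83, SE 0.24, adjusted p = 0.0127) were lower. Vcan (0.26, SE 0.58) and Cspg4, with 1 UMI in Astro, were not called. The median over all genes was -0.21, and the median of the 9 was 1.62, which is the value of Cspg4. The call on Tnr was lost without w1 (adjusted p = 0.0584) or w2 (0.197) and that on Ptprz1 without w4 (0.0619). Thinning to 2000 UMIs left 5 of the 7 calls, without Ncan (0.114) and Tnr (0.0638), and DESeq2 left 5, without Tnc (0.281) and Ptprz1 (0.121), which was also lost with no library term (0.0579). Over all genes, thinning called 687 in this contrast, against 675 higher and 594 lower as reported.

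**Figure D3:**
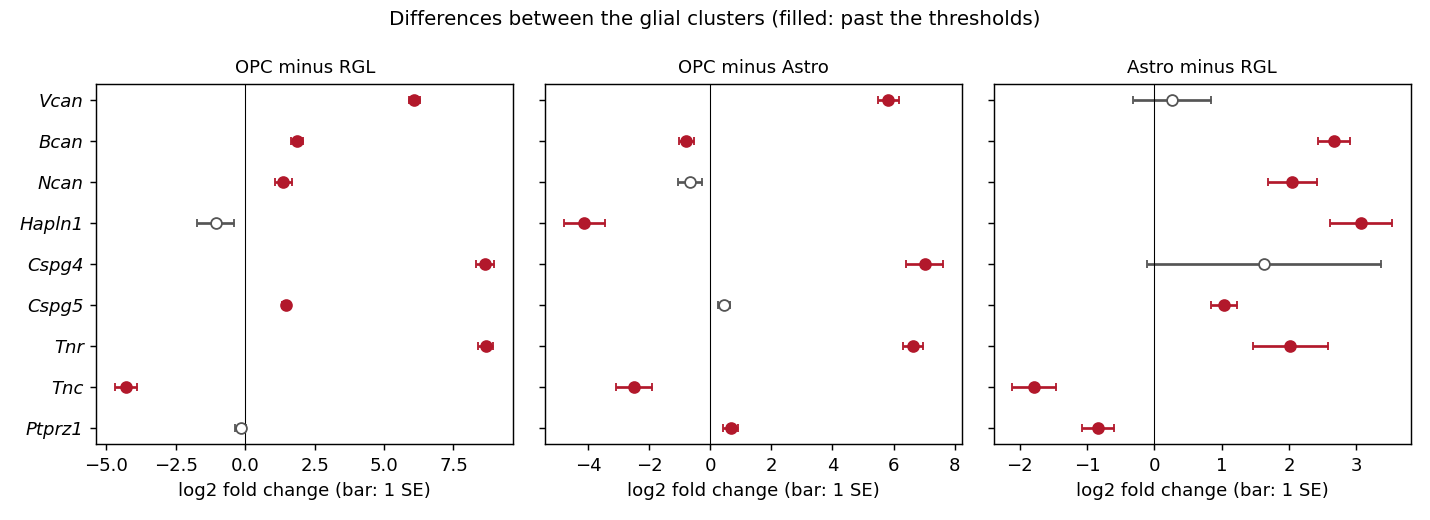
Log2 fold change (± 1 SE) of each gene in OPC against RGL, OPC against Astro and Astro against RGL from the edgeR fit over 38 sums; filled points pass both thresholds. Tnr, Cspg4 and Vcan lie above 5 in both OPC contrasts, Tnc lies below 0 in all 3, and Bcan and Hapln1 lie above 2 in Astro against RGL.

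Against the mean of NB1, GCimm1, GCimm2, GCyoung and GCmat1, OPC was higher for 8 of the 9 genes, with 15% of all genes called higher and 16% lower, and Ncan was not called at -0.04 (SE 0.26). Hapln1, with 5 UMIs in OPC, lost its call when nuclei were thinned to 2000 UMIs (2.21, adjusted p = 0.373). The differences ran from 2.83 (SE 0.13) for Tnr to 9.92 (SE 0.25) for Cspg4, with 7.07 for Vcan and 6.96 for Bcan. RGL was higher than neurons for 6 genes and lower for 2, with 25.8% of all genes called higher and 22.7% lower. Tnc led at 9.25 (SE 0.22), followed by Bcan at 5.08, Hapln1 at 4.71 and Ptprz1 at 4.41, while Tnr at -5.83 (SE 0.24) and Ncan at -1.42 (SE 0.16) were lower in RGL. Vcan was higher in RGL by 0.98 (SE 0.19), a call lost at a fold change of at least 2. That holds for the mean of the neuronal clusters only. Every NB1 library, at 34.0 to 62.7 CPM of Vcan, lay above every RGL library, at 15.9 to 28.7. Astro was higher for 5 genes and lower for 1, with 15.7% of all genes called higher and 17.6% lower. Hapln1 led at 7.77 (SE 0.55), with Bcan at 7.74 and Tnc at 7.47, and Tnr was again lower at -3.81 (SE 0.34). The other 3 genes were called higher in Astro by DESeq2 (adjusted p = 0.0225 for Vcan, 0.00807 for Ncan and 0.0187 for Cspg4), Ncan also with RLE size factors (0.0241) and Vcan without w1 (0.0476). The sign of Tnr against neurons thus differed between OPC and the other 2 glial types.

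Oligodendrocytes, the progeny of OPC, held almost none of these genes. Of the 9, 7 were lower in Oligo than in OPC, with 6.7% of all genes called higher and 13.2% lower. Tnr was lower by a log2 fold change of -9.12 (SE 0.47), Vcan by -8.43 (SE 0.50), Cspg5 by -6.52 (SE 0.50), Bcan by -5.94 (SE 0.79) and Cspg4 by -5.13 (SE 0.57). Few UMIs in Oligo lie behind these values, so the size of each fall is loosely known. Vcan and Bcan were each found in 1 of 45 Oligo nuclei, Tnr and Cspg5 each in 2 and Cspg4 in 4. Ptprz1 and Ncan had no UMI in the 3 Oligo libraries with at least 10 nuclei, where the limit of 3 counts makes them at least 193-fold and at least 4.16-fold lower. Here and below such a bound takes the level of the other cluster as observed, without its own counting error. Tnc and Hapln1, with 15 and 5 UMIs in OPC, were not called. Oligo held 219664 UMIs in 45 nuclei, which limits the depth of this contrast.

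On the neuronal trajectory most of these genes fell early. From RGL to NPC, 5 of the 9 fell and Vcan rose, with 14.8% of all genes called higher and 16.8% lower. Tnc fell by 3.53 on the log2 scale (SE 0.32), Cspg5 fell by 3.03 (SE 0.26), Bcan fell by 2.12 (SE 0.37) and Ptprz1 fell by 0.96 (SE 0.23). Hapln1, with 68 UMIs in RGL and none in NPC, was at least 3.34-fold lower. Vcan rose by 1.57 (SE 0.29, adjusted p = 1.16e-05). From NPC to NB1 the neuronal members came up: Tnr rose by 4.93 (SE 0.43) and Ncan by 1.46 (SE 0.27), while Tnc fell by 5.11, Ptprz1 fell by 3.01 and Bcan fell by 2.33. Cspg4 was also called lower, from 3 UMIs in each cluster, which makes 2 rises and 4 falls with 15.4% of all genes called higher and 16% lower. That call on Cspg4 was lost without any 1 of the libraries, and the call on Bcan without w1, where Vcan became called as lower in NB1 (-0.99, adjusted p = 0.0194).

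In the later steps at most 4 of the 9 genes were called. From NB1 to NB2 only Tnr passed (0.86, SE 0.22, adjusted p = 0.0135), with 1.92% of all genes called higher and 1.15% lower, and without w1, w2 or w4 it did not. From NB1 to GCimm1, with 8.04% of all genes called higher and 5.2% lower, Tnr rose by 2.16 (SE 0.22) and Cspg5 by 1.08 (SE 0.21), while Vcan fell by 1.98 (SE 0.23) and Ptprz1 fell by 0.90 (SE 0.26). The call on Ptprz1 was lost without w2 or w4, with no library term (adjusted p = 0.058), with DESeq2 (0.0532) and at a fold change of at least 2. From GCimm1 to GCimm2 edgeR and DESeq2 called 0 of the 9, where edgeR called 6.78% of all genes higher and 3.11% lower, and 2 (Ncan and Cspg5) had an unadjusted p under 0.05. From GCimm2 to GCyoung, with 9.34% of all genes called higher and 10.3% lower, Ptprz1 rose by 1.36 (SE 0.30, adjusted p = 0.000413), while Cspg5 fell by 1.24 (SE 0.24) and Ncan fell by 0.88 (SE 0.22). The last 2 calls were lost without w4, the library that holds 1979 of 2176 GCyoung nuclei. From GCyoung to GCmat1 edgeR and DESeq2 called 0 of the 9, where edgeR called 1.71% of all genes higher and 2.53% lower, and 2 (Hapln1 and Cspg4, with 4 UMIs each in GCmat1) had an unadjusted p under 0.05. GCmat2 differed from GCmat1 in Vcan, which had no UMI in GCmat2 and was at least 2.81-fold lower there, with 3.48% of all genes called higher and 4.43% lower, and this call was lost without w4 or w8.

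The authors' pseudo-time, deposited for 13635 nuclei from RGL to GCmat1, gave the order of these changes in more detail. Each bin of 2 units pools the nuclei of all clusters in it. Tnc was at 552 CPM in the first bin (0 to 2), 110 in the bin from 6, which is 75.2% NPC, and 8.03 in the bin from 8, 55.6% NPC. Ptprz1 lasted longer, with 3732 CPM in the first bin, 3010 from 6 and 1251 from 8, and was at 285 from 10, where NB1 is the main cluster. Vcan was at 24.6 CPM from 0, all RGL, and had no UMI in the 61 RGL nuclei from 2 (upper exact 95% Poisson limit 12.6 CPM). Over all nuclei it was highest at 190 CPM (151 to 236, exact 95% Poisson interval) from 6 and 145 from 8, and was at 97.8 from 10 and 22.8 from 12. The high bins owe most of their Vcan to NB1: from 6, 64 of 81 UMIs lay in the 16 NB1 nuclei, 15 of which held a UMI, at 859 CPM (661 to 1097), against 52.5 (30.6 to 84.1) in the 76 NPC nuclei of the bin. From 8 the 96 NB1 nuclei were at 191 CPM (150 to 239) and the 129 NPC nuclei at 98.8 (74.4 to 129). Within NB1 Vcan was then at 84.0 CPM from 10, 18.8 from 12 and 17.0 from 14, so among these bins its level in NB1 was highest from 6. The bin from 2 holds 3 NB1 nuclei, with no UMI of Vcan (upper limit 382 CPM). Bcan was at 82.4 CPM in the first bin, all RGL, and at 27.4 (11.8 to 53.9) in the 61 RGL nuclei of the next.

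Tnr and Ncan came up one after the other. Ncan was already at 83.4 CPM in the bin from 8, with 57.5 in its NPC nuclei and 125 in its NB1 nuclei, and at 107 from 10, stayed between 89.9 and 116 up to 20, and then was at 71.5 and, from 24, at 35.2. Tnr was at 8.03 CPM from 8 and 63.7 from 10, reached 256 from 12, 706 from 14 and 969 from 16, in GCimm1, and lay at 697 from 20 and 895 from 30. Among NB1 nuclei alone Tnr was at 49.6 CPM from 10, 209 from 12 and 598 from 14, so NB1 covers a wide range of Tnr levels. Ptprz1 had its low point at 63.6 CPM from 18 and was at 177 from 24 and 203 from 26, so its level in young granule cells was again above that low point. Cspg5 was at 325 CPM in the first bin, 14.1 from 8 and 75.0 from 18, then 17.96 in the last bin. Pseudo-time was computed from expression of a gene table that holds 7 of the 9, so these curves are a description and no test was made on them. Of the GCmat1 nuclei of w8, 216 have no pseudo-time, and there Tnr was at 999.5 CPM against 875 in the other 2711, and Ptprz1 at 126 against 180.

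**Figure D4:**
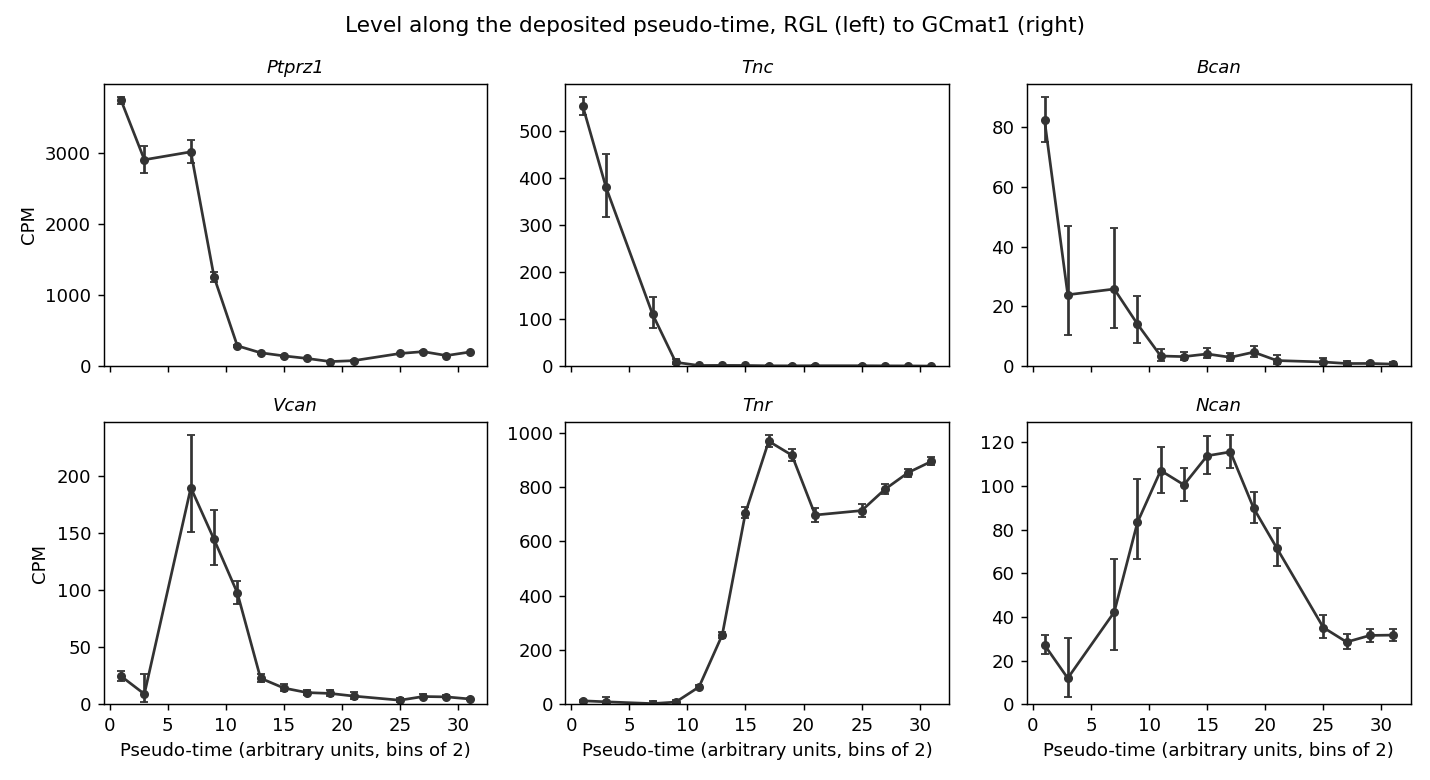
Level of 6 of the genes in CPM along the authors' pseudo-time, in bins of 2 units with at least 20 nuclei, pooled over libraries (no point from 4 to 6 and from 22 to 24). Tnc and Ptprz1 fall from 552 and 3732 in the first bin, Vcan is highest at 190 in the bin from 6, and Tnr climbs from 8.03 to 969 between the bins from 8 and from 16.

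Across weeks the OPC levels of some genes moved less than those of others. Over the 4 OPC libraries Tnr ranged from 4372 to 5084 CPM and Ptprz1 from 2861 to 3119, while Vcan ranged from 1119 to 1747, Cspg5 was at 920 CPM in w1 and 663 in w8, and Cspg4 was at 529 in w1 and 244 to 331 afterwards. The exact 95% Poisson interval of Cspg4 in w1, 412 to 670 CPM, overlaps those in w2 (257 to 419) and w8 (250 to 424) but not that in w4 (174 to 334), and that of Vcan in w2 (979 to 1273) lies below that in w4 (1548 to 1964). In RGL, Tnc was at 731 CPM (696 to 766) in w1 and 426 (398 to 454), 459 (424 to 497) and 351 (288 to 423) afterwards, so w1 stood above the rest by more than counting error. Bcan and Hapln1 were highest in RGL of w8, at 134 CPM (96.5 to 181) and 38.2 (19.8 to 66.8), in 83 nuclei. The summed astrocyte markers were also highest in that sum, at 376 CPM against 204, 217 and 181 in w1, w2 and w4, and their part in these values was not tested. These intervals cover counting error only, and with 1 pool a week no test between weeks is possible.

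Detection in single nuclei followed the levels. After each nucleus was thinned to 2000 UMIs (141 shallower nuclei were left out), Tnr was found in 100% of OPC nuclei, as without thinning, and in 2.48% of RGL nuclei, 4.11% without thinning. Vcan was found in 87.8% of OPC nuclei (95.4% unthinned), 3.94% of RGL (7.64%) and 1.07% of GCmat1 (4.08%), and Cspg4 in 48.1% of OPC (72.5%) against 0.0729% of RGL (0.360%). Tnc was found in 55.2% of RGL nuclei (73.2%) and 5.34% of OPC (6.87%), with none of the thinned GCmat1 nuclei. Bcan was found in 53.7% of Astro nuclei (85.1%), 44.3% of OPC (62.6%) and 14.8% of RGL (25.1%), and Hapln1 in 13.4% of Astro (25.4%) and 1.90% of RGL (3.97%). Whether free RNA in the droplets adds to the low shares was not tested. The median depth was 4750 UMIs in OPC, 4091 in RGL, 4670 in Astro and 8138 in GCmat1. Ptprz1 was found in 99.2% of thinned RGL, 99.2% of OPC and 95.5% of Astro nuclei.

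OPC nuclei were the ones that held many of these genes at once. After thinning, 99.2% of OPC nuclei (95.8% to 100.0%, exact Clopper-Pearson) had UMIs of at least 3 of the 9 genes, against 52.2% of Astro (39.7% to 64.6%) and 37.5% of RGL (34.9% to 40.1%). The share was 7.28% in NPC and 1.70% to 7.31% in the neuronal clusters. At least 5 genes were found in 58.0% of OPC nuclei, 5.97% of Astro and 0.656% of RGL, and the median number was 5, 3 and 2. All 4 Astro nuclei with at least 5 genes came from w4 (4 of 24), with 0 of 22 in w1 and 0 of 21 in w2, which allow shares of up to 15.4% and 16.1%. For at least 3 genes Astro was at 40.9% in w1, 42.9% in w2 and 70.8% in w4 and RGL at 43.1%, 32.5% and 35.9%, so the pooled order of Astro and RGL did not hold in w1, while OPC was at 97.1% or more in every library. The shares fall with depth, to 90.8%, 23.9% and 16.01% for at least 3 genes at 1000 UMIs, in the same pooled order. Nuclei of 1 library share its pool and are not replicates, so the intervals cover counting error only.

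Patterns over the 38 sums were compared as log2 CPM, with Pearson's r given as a description, since sums of 1 library or 1 cluster are not independent. Bcan ran with Hapln1 (r = 0.79) and Cspg5 (0.75), Vcan with Cspg4 (0.68) and Tnr with Ncan (0.63), while Tnr and Tnc ran apart (-0.42). Hapln1 ran with Cspg5 (0.72) and Tnc (0.66), and Bcan with Tnc (0.71). Ptprz1 ran with Cspg5 (0.69), Tnc (0.68) and Bcan (0.68). Vcan and its chromosomal neighbour Hapln1 had an r of 0.26. Of all genes tested, the nearest in pattern were Fchsd2 (0.83), Itga9 and Ntn1 for Vcan, Ednrb (0.92), Cyp2j9 and Etv4 for Bcan, Chst10 (0.90), Fut9 and Gm14306 for Ncan, and Gdpd2 (0.95), Dio2 and Tox2 for Hapln1. For Cspg4 they were Rbpjl (0.93), Tmem255b and 4933407I08Rik, for Cspg5 Etv4 (0.85), Rasa2 and Cyp2j6, and for Tnr Scn1a (0.93), Grm5 and Sntg1. Pdgfd (0.92), Rfx4 and Wwtr1 were nearest to Tnc, and Spry2 (0.91), Gm3764 and Pcgf5 to Ptprz1.

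The other genes of the matrix were followed in 5 lists. These were drawn up with earlier results of these data known. Their shares are set beside those of all genes as a description, and an excess in a list is not independent evidence. In a list of 23 genes, all of chondroitin sulphate synthesis but Ndst3, which acts on heparan sulphate, 18 were tested, and 9 of them (50%, against 14.5% of all genes), Ndst3 included, were higher in OPC than in RGL with none called lower, with a median log2 fold change of 1.16 against -0.14 over all genes. Ust, a uronyl sulphotransferase, was higher by 4.21 (SE 0.32), Chst11, a chondroitin sulphotransferase, by 3.77 (SE 0.17), and Chst7, another, by 3.51 (SE 0.72). Against Astro, 8 (44.4%, against 11% of all genes), again with Ndst3, were higher in OPC and 2 (11.1%, against 9.6%) lower (median 2.36, against 0.07 over all genes, and 1.73 with the 2 genes at 0 UMIs set to the bound that 3 counts allow). Chst3, which also sulphates chondroitin, and Ndst3 each had 20 UMIs in OPC and none in Astro, at least 3.31-fold, and Chsy3, a chondroitin synthase, was higher by 4.26 (SE 0.70). In Astro against RGL 2 of the 18 (11.1% higher and none lower, against 5.85% and 5.14% of all genes) were called, Csgalnact1, which starts the chondroitin chain (1.31, SE 0.23), and Chst11 (1.03), and both were higher. Chst11 itself was at 994 CPM in OPC, 155 in Astro and 78.2 in RGL.

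Partners of the lecticans were sparse. Of 15 listed genes for hyaluronan and lectican partners 14 are features and 6 were tested, and 2 of these (33.3%, against 14.5% of all genes) were called higher in OPC than in RGL with a median of 1.71 against -0.14. They were the lectican gene Acan (5.23, SE 0.67) and the hyaluronan synthase gene Has2 (4.26, SE 0.63). Each had 20 UMIs in OPC (29.6 CPM) and none in Astro, which makes both at least 3.31-fold higher in OPC than in Astro, where they were the 2 genes called (33.3%, against 11% of all genes called higher). In Astro against RGL 4 of the 6 had no UMI in Astro, and no difference is read there. Acan was also at 29.6 CPM in GCimm1 and 35.7 in GCimm2, and 1.95 in GCmat1. Of the other link protein genes, Hapln2 was at a pooled 100 CPM in Oligo (22 UMIs) and 1.48 in OPC, and Hapln4 had no UMI in OPC or Astro. The Oligo libraries with at least 10 nuclei held 26.3 to 75.0 CPM of Hapln2. The pooled value lies above them and also takes in the 6 Oligo nuclei of w1.

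Of 23 proteases and inhibitors 17 were tested, and 5 (29.4%) were higher and 1 (5.88%) lower in OPC than in RGL, where all genes gave 14.5% and 15.2%, with a median of 0.20 against -0.14. Mmp15 (4.70, SE 0.53), a membrane-type metalloproteinase, and Adamts3 (3.69, SE 0.41), of the ADAMTS proteases, led the increases together with Mmp16 (2.86, SE 0.18), while Mmp14 was lower at -2.43 (SE 0.66). Against Astro, 4 (23.5%) were higher in OPC and 2 (11.8%) lower, against 11% and 9.6% of all genes (median 0.35, or 0 with the 3 genes at 0 UMIs set to their bound, against 0.07), among them Adamts17 with 29 UMIs in OPC and none in Astro, at least 4.80-fold, Mmp15 (4.47) and Mmp16 (3.54). In Astro against RGL, where 5.85% of all genes were called higher and 5.14% lower, 3 (17.6%) were higher and 1 (5.88%) lower (median -0.33, or 0 with the 3 genes at 0 UMIs set to their bound, against -0.21). Adamts20 (2.85, SE 0.40) and Adamts9 (2.10, SE 0.31) were higher, and Adamts17 had no UMI in Astro, at least 1.76-fold lower.

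Of 22 receptors and ligands of these proteins 20 were tested, and 10 (50%) were higher and 2 (10%) lower in OPC than in RGL, against 14.5% and 15.2% of all genes, with a median of 0.86 against -0.14. Pdgfra, the growth factor receptor that defines OPC, was higher by 10.34 (SE 0.32) and was one of the markers that checked the cluster. Itga9, an integrin subunit known to bind tenascin, was higher by 7.22 (SE 0.36), and the Nogo receptor gene Rtn4r had no UMI in OPC and was at least 1.59-fold lower than in RGL. Against Astro, 6 (30%) were higher in OPC and 2 (10%) lower, against 11% and 9.6% of all genes (median 0.47, or 0.31 with the 3 genes at 0 UMIs set to their bound, against 0.07). Pdgfra had no UMI in Astro and was at least 95.0-fold higher in OPC, Itga9 was higher by 5.83 (SE 0.64) and Egfr, the epidermal growth factor receptor, was at -6.73 (SE 0.58). Egfr was also low in OPC beside RGL, with 2.96 CPM in OPC (2 UMIs), 363 in RGL and 355 in Astro. In Astro against RGL 7 (35%) were higher and 1 (5%) lower, against 5.85% and 5.14% of all genes (median 0.41, against -0.21), led by Cntn1 (3.39, SE 0.35), a contactin that binds Ptprz1 and Tnr, Ptprd (2.07) and Nfasc (1.65). Ptn, a ligand of Ptprz1, was at 2205 CPM in Peri, 824 in Oligo, 570 in Astro, 431 in OPC and 279 in RGL.

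Other matrix and cell-surface proteoglycans went both ways. Of 26 listed 22 were tested, and 3 (13.6%) were higher and 5 (22.7%) lower in OPC than in RGL, with a median of 0.14 against -0.14, so the share called higher was near the 14.5% of all genes. Spock1, a testican, was higher by 6.04 (SE 0.47), Bgn, biglycan, had no UMI in OPC and was at least 1.99-fold lower, and the syndecan gene Sdc4 was at -3.63. Against Astro, 4 (18.2%) were higher in OPC and 4 lower, against 11% and 9.6% of all genes (median 0.14, or 0 with the 8 genes at 0 UMIs set to their bound, against 0.07), with Sdc4 at -5.69 (SE 0.70), Sdc3 at 3.56 and Tgfbr3 with 16 UMIs in OPC and none in Astro, at least 2.65-fold. In Astro against RGL 4 (18.2%, against 5.85% of all genes called higher) were called and all 4 were higher, Spock1 (3.40), Sdc4 (2.06), Gpc5 (1.67) and Sparcl1 (1.55), with a median of -0.39, or 0 with the 7 genes at 0 UMIs set to their bound, against -0.21 over all genes.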

How the data were processed

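The deposited files hold whole UMI counts per feature and nucleus for 4 libraries, which the authors made from 10x Chromium 3′ reads with STARsolo (2.7.4a in the submitters' processing notes) on GRCm38, over exons and introns, without multi-mapped reads. The authors also deposited a table of log2 expression (counts over scran size factors, 1 added) for 13353 genes which also carries cluster, library and pseudo-time labels, and had removed doublets (scDblFinder), low-quality nuclei and some w4 nuclei before. The 14367 nuclei and 13 clusters of that table were used, with groups taken from the labels.

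Counts were summed per library and cluster with at least 10 nuclei and tested with edgeR 4.0.16 (filterByExpr, TMM, glmQLFit, glmQLFTest; terms for cluster and library, 22 residual degrees of freedom, Benjamini-Hochberg over 11548 genes) in 15 contrasts. The study tested nuclei as replicates, and its thresholds were kept. The fit was also run on simulated counts, with the same dispersion for every gene and no library effect. Those settings differ from these sums, so the error rate of the test here was not measured. Levels have exact Poisson and shares exact Clopper-Pearson intervals at 95%, a count of 0 has a limit of 3 counts over the sums compared, and all cover counting error only. A fold given as a bound sets the observed level of the other cluster against that limit and leaves out the counting error of the observed level. Alternatives were DESeq2 1.42.0, RLE factors, no filter, no library term, other nucleus minimums, a fold change of 2, thinning to 2000 UMIs, fewer clusters and each library left out.

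All 9 genes are named. Genes of the 5 pathway lists are named where they are among the 3 largest called changes of a glial contrast or where a result turns on them, and Mmp16, Sdc4, Sdc3, Gpc5, Sparcl1, Hapln2, Hapln4 and Ptn were named after their values were seen. The genes and lists were chosen with earlier results of these data known. Python 3.11.15 (numpy 2.4.6, scipy 1.17.1, pandas 2.3.3) and R 4.3.3 were used. Of 45706 features 45143 are in GENCODE M21. Protein sequences were not used here. The gene that drives the Cre is not reported here.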

Additional observations from a re-analysis of the deposited data

Results flagged for a closer look

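Hapln1 in RGL was at 38.2 CPM in w8, against 8.26, 8.93 and 13.3 CPM in w1, w2 and w4. The w8 value stood far from the other 3 libraries, by a gap of most of the group's range, and was the only one of 18 groups of 4 libraries (the 9 genes in OPC and in RGL) to do so, where chance flags about 1 in 20. It rests on 12 UMIs in 83 nuclei, with an exact 95% Poisson interval of 19.8 to 66.8 CPM. The summed astrocyte markers were highest in the same sum, at 376 CPM, and their part in the value was not tested.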

How the results depend on the processing

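The fit compares clusters within libraries through its library term, and without that term 5 calls were lost, while weeks cannot be paired because each is 1 sample. The 71 calls on the 9 genes gave 908 values under the alternatives, of which 857 kept direction and call, 50 lost the call and 1 changed direction: Cspg4 from NPC to NB1, 0.98 when thinned to 2000 UMIs per nucleus. All 7 calls in OPC against RGL held under every alternative fit. As differences of the authors' mean log2 expression per nucleus, which have no test, the OPC to RGL values were smaller than the log2 ratios of pooled CPM, at 2.87 for Vcan, 0.75 for Bcan, 0.20 for Ncan, 4.71 for Tnr and -1.46 for Tnc, each with the same sign. Counts of the 9 genes called moved by over 1.5 times in NB2 against NB1 (0 with no library term or a fold change of 2, and 0 to 1 with a library left out, against 1), GCmat2 against GCmat1 (0 when thinned, 0 to 2 with a library left out, against 1), OPC against Astro (4 with DESeq2, 4 to 6 with a library left out, against 7) and GCyoung against GCimm2 (1 to 3 with a library left out, against 3). Smaller moves were 7 to 5 in Astro against RGL when thinned or with DESeq2, 4 to 3 in GCimm1 against NB1 with no library term, DESeq2, a fold change of 2 or without w2 or w4, 7 to 5 in OPC against Astro with no library term, thinned or at a fold change of 2, and 6 to 5 in NB1 against NPC with no filter, when thinned and without each library (without w1 Bcan and Cspg4 were lost and Vcan was gained). The 64 uncalled values gave 820 under the alternatives, of which 8 became called, 5 of them in Astro against neurons, and 72 changed direction, 59 of those in the other 9 contrasts. In the 6 contrasts among OPC, RGL and Astro and against neurons they changed direction for Ncan in OPC against neurons (-0.04 as reported, 0.0073 with no filter, 0.17 with RLE or DESeq2, 0.0053 without GCmat2, Oligo and Peri, and -0.32 to 0.11 with a library left out), for Cspg4 in Astro against RGL (-1.46 thinned, -4.51 to 2.99 with a library left out), RGL against neurons (-0.46 thinned) and Astro against neurons (-1.92 thinned, -2.74 to 4.47 with a library left out), and for Vcan in Astro against RGL (-0.017 to 0.52 with a library left out). Ncan in Astro against RGL lost its call when thinned (adjusted p = 0.114) and Tnc there with DESeq2 (0.281). The number of all genes called also fell in some of these settings, so lost calls were not limited to the 9 genes. Thinning called 687 in Astro against RGL (675 higher and 594 lower as reported) and 1394 in OPC against Astro (1272 and 1109). With no library term NB2 against NB1 gave 200 (222 and 133). In OPC against Astro with DESeq2 or no library term, the number moved by at most 1.5 times. The shares of nuclei with at least 3 genes were 90.8% in OPC, 16.01% in RGL and 23.9% in Astro at 1000 UMIs. RLE moved the median of all genes in Astro against RGL from -0.21 to -0.05, and no called gene changed direction with it. The cause was not tested for these changes, and 45 to 131 nuclei in Oligo, Astro and OPC limit what their depth can show.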
